A study of Mus musculus with 6 samples.

Results

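The amino acid transporters of 7 solute carrier families were measured in mouse heart after removal of the adrenal glands or a sham operation. Members were taken by name from the array: every noncontrol probe whose gene name begins with Slc1a, Slc3a, Slc6a, Slc7a, Slc36a, Slc38a or Slc43a. The rule found 96 probes for 56 gene names, out of 41174 probes and 28787 gene names on the array. Of the 56, 36 could be tested, which required a probe well above background throughout 1 group or both, against 16952 genes tested on the whole array. Slc7a6os, a neighbour that overlaps Slc7a6 and is not itself a transporter, carries the prefix and is counted among the 36, which leaves 35 transporters.

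The hearts came from 6 male C57BL/6 mice, an inbred laboratory strain, with 1 Agilent 1-colour array of 60-base probes per heart. In 3 mice the adrenals, the source of corticosterone and aldosterone, had been removed, and 3 mice had a sham operation. Surgery was at 1 month of age with collection 6 months later. Since the source label instead describes the animals as 6 months old, their age at collection is not certain. No genetic change was given for any mouse, and the labels name no hormone replacement.

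Amino acid transporters move amino acids, and in the Slc6 family also neurotransmitters, taurine and creatine, across the cell membrane. Slc1, Slc6 and Slc38 carriers are coupled to sodium, Slc36 carriers to protons, and most Slc7 carriers exchange one amino acid for another and need a heavy chain of the Slc3 family to reach the membrane. Heart muscle takes up glutamine, glutamate, branched-chain amino acids, taurine and creatine through these carriers. In many cells a shortage of amino acids raises transcription of several carrier genes through the factor Atf4, which binds amino acid response elements.

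Levels are log2 processed signals relative to the 75th percentile of each array, so a difference of 1 is a doubling; levels of different probes cannot be compared with each other. Differences are adrenalectomized minus sham, tested with limma and adjusted by Benjamini-Hochberg over all 16952 genes. Slide 1 carried the 3 sham arrays together with adrenalectomized replicate 1, and slide 2 the other 2 adrenalectomized arrays. A difference within slide 1 therefore sets 1 adrenalectomized heart against 3 sham hearts, and the remaining part of each difference cannot be told apart from the slide. In whole heart, fewer cells of a type and less RNA per cell cannot be told apart either.

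Probe sequences are shown for Slc38a2, because its 4 probes did not move alike. Each line gives the first 30 of 60 bases, 5′ to 3′ as the scanner files list them, with no base in capitals. The design positions are on mm7, minus strand, from the 5′ to the 3′ end of the gene: chr15:96699481-96699540, chr15:96698390-96698449, chr15:96691104-96691163 and chr15:96689459-96689518. The exon or untranslated region of each is not given, since no mm7 annotation was used here.
Slc38a2 A_52_P459046: caaagaatagtgttacttttagatttcaaa
Slc38a2 A_51_P199314: tgtgacagttgagaaattttggttagttga
Slc38a2 A_52_P676686: ttgaatgtgcctaacggaaccattcgatgt
Slc38a2 A_51_P458384: aaggttccaaatgaatttcaggccaaattc

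Promoter stretches are shown for Slc7a11 and Slc7a7, the only members with the core of an amino acid response element (TGATGNAA on either strand, overlaps allowed) in the 250 bases before a start site. The sequences are RefSeq's on GRCm38.p6 and both genes lie on the minus strand, with the core in capitals. The Slc7a11 window is chr3:50443638-50443694, and the Slc7a7 windows are chr14:54417923-54417952 and chr14:54418063-54418100. The Slc7a7 cores lie 236 to 243 and 134 to 141 bases before different start sites, so they do not share a 250-base stretch.
Slc7a11, both cores: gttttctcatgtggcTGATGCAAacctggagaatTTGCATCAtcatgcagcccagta
Slc7a7, first window: tagaagcTGATGCAAcagcttccccgaggg
Slc7a7, second window: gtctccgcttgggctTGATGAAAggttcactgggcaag
The core was present in 2 of the 38 members with a promoter in the table (5.26%), against 3.91% of 27025 genes. A glucocorticoid receptor half-site (AGAACA on either strand) was present in 7 of the 38 (18.4%), against 18.2% of all genes. The 7 were Slc1a3, Slc36a1, Slc38a4, Slc6a19, Slc7a1, Slc7a11 and Slc7a7. A match describes these letters only.

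None of the 36 genes passed an adjusted p of 0.05 in limma, with 0.0413% of all genes called, and the smallest adjusted p of a member was 0.317, for Slc7a7. At an unadjusted p under 0.05, 6 members were higher after adrenalectomy (16.7%, against 6.26% of all genes) and 2 were lower (5.56%, against 5.99%). The higher ones were Slc6a7, Slc6a14, Slc6a16, Slc7a4, Slc7a6 and Slc36a2, and the lower ones Slc7a7 and Slc7a8. Slc6a7 was tested only through the adrenalectomized group, where it was higher, so its place in this count rests on the filter. Among genes above background on all 6 arrays, 5 of 32 members were higher (15.6%, against 5.6% of all genes) and 2 lower (6.25%, against 6.65%). With sham replicates 1, 2 and 3 left out in turn, the number higher was 1, 3 and 2 (2.63%, 8.33% and 5.56%, against 4.55%, 4.69% and 5.67% of all genes). Without adrenalectomized replicates 1, 2 and 3 it was 4, 0 and 3 (10.5%, 0% and 8.11%, against 6.77%, 5.04% and 6.85%). The share higher thus lay below that of all genes without sham replicate 1, sham replicate 3 or adrenalectomized replicate 2. It also lay below under median centring (2.78%, against 4.48%) and with no filter on dim probes (1.79%, against 3.9%). It lay above under quantile normalization (13.9%, against 6.35%), the 75th percentile over detected probes (11.1%, against 5.67%) and a robust variance trend (8.33%, against 6.19%). With single arrays left out, the number lower was 0 without sham replicate 2 and 5 without sham replicate 3 (13.9%, against 8.83% of all genes). It was 1 without adrenalectomized replicate 2 and 2 without any other array.

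Groups that did not overlap were found for 7 members with higher values (19.4%, against 10.3% of all genes): Slc6a7, Slc6a8, Slc6a14, Slc6a16, Slc7a4, Slc7a6 and Slc7a6os. Without Slc6a7 and other genes that were dim on any array it was 6 of 32 (18.8%, against 9.58%). The same held for 2 members with lower values (5.56%, against 7.89%), Slc7a7 and Slc7a8. Over the 36 genes, 22 differences were above 0 and 14 below, with a median of 0.12, against a median of 0.03 and a median standard error (SE) of 0.14 over all genes. Of the 22, Slc6a4, Slc6a7 and Slc7a10 were tested only through the adrenalectomized group, where they were higher. So was the brighter probe of Slc43a2, which stands for the gene, while its other probe was tested only through the sham group and gave -0.41. Over the 32 members above background on all 6 arrays the median was 0.082. Within slide 1, 1 member had an unadjusted p under 0.05 above 0 (Slc6a7; 2.78%, against 5.19% of all genes) and 1 below (Slc6a6; 2.78%, against 4.78%). All 8 genes with an unadjusted p under 0.05 over all arrays kept their direction there. For all of them but Slc36a2 the groups did not overlap, so adrenalectomized replicate 1 already lay beyond every sham heart. Their direction within slide 1 could not turn and is no check on the slide. Only that of Slc36a2 could turn, and its difference was 0.09, against 0.53 over all arrays.

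Many of these signs turned with the background correction. Normexp took the raw mean signal of each spot minus its local background, and modelled the remaining background over the whole array (offset 50). It replaced the processed signal, so the scanner software's removal of spatial trends was not applied. With normexp the median of the members was -0.33 against -0.05 for all genes, with 9 of 36 above 0. Under it 3 of the 36 members passed with higher values (Slc36a2, Slc38a2 and Slc6a8) and 14 with lower ones. Of all 16952 genes, 1220 passed with higher and 4734 with lower values. At an unadjusted limma p under 0.05, 11.1% of members were higher (against 14.6% of all genes) and 44.4% lower (against 33.9%). The directions of Slc6a7, Slc6a14, Slc6a16, Slc7a4 and Slc7a6 turned there, and those of Slc7a7, Slc7a8, Slc36a2 and Slc6a8 did not.

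**Figure D1:**
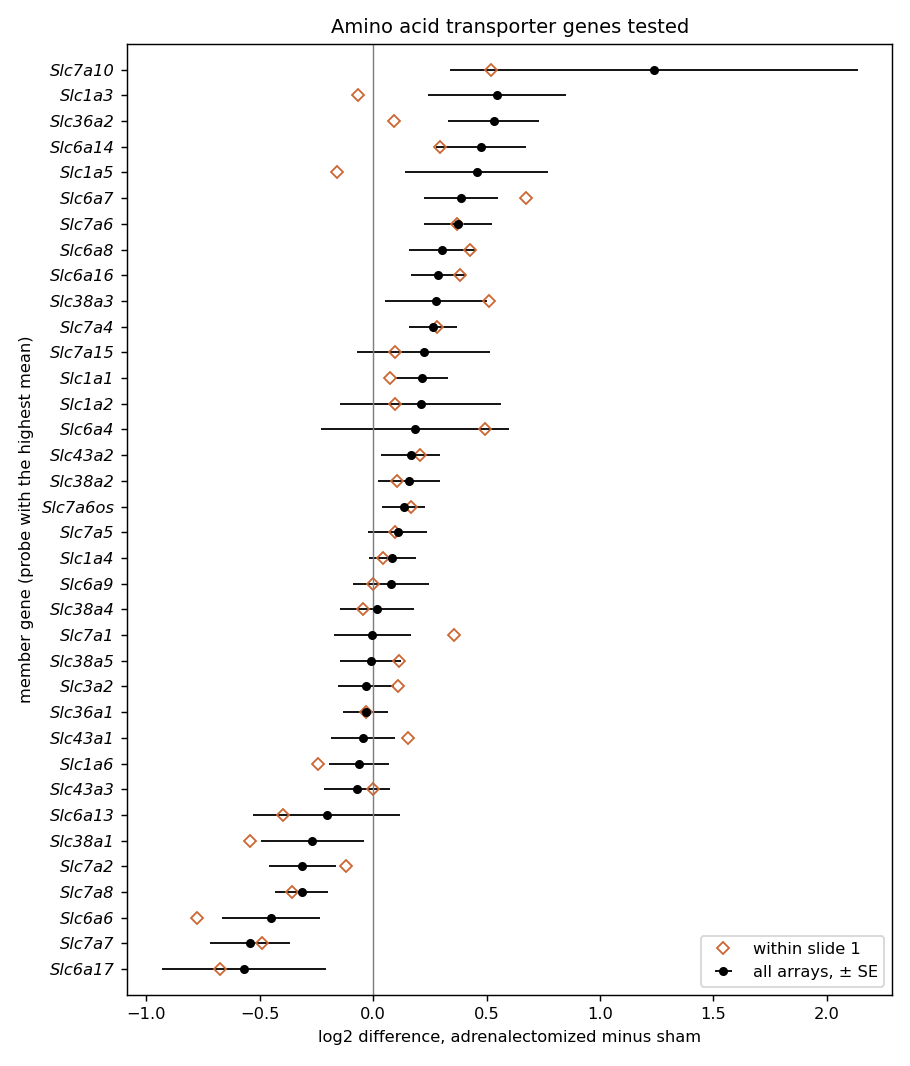
Log2 difference (adrenalectomized minus sham, horizontal axis) of the 36 genes tested, in order of size. Filled points with bars are the limma estimate over 3 against 3 arrays ± SE, open diamonds the value within slide 1; Slc1a3, Slc36a2 and Slc1a5 lie at 0.54, 0.53 and 0.46 overall and at -0.07, 0.09 and -0.16 within slide 1.

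The Slc7 family holds the cationic amino acid carriers and the light chains that pair with Slc3 heavy chains. Of its 16 gene names 10 were tested, 6 with a difference above 0 and 4 below, with a median of 0.12. Of those above 0, Slc7a10 was tested only through the adrenalectomized group. The count turned to 1 above and 9 below under normexp.

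Slc7a7 encodes y+LAT1, a light chain that exports arginine and lysine in exchange for neutral amino acids and sodium, and it had the smallest p of all members. Its log2 levels were 2.65, 3.02 and 2.45 in the sham hearts and 2.22, 1.95 and 2.32 in the adrenalectomized hearts. Every adrenalectomized value lay below every sham value, and adrenalectomized replicate 2 was the lowest. The difference was -0.54 (SE 0.18, 95% interval -0.96 to -0.13, limma adjusted p = 0.317), a size of 1.46-fold, and -0.49 within slide 1 (adjusted p = 0.603). The probe lies at chr14:49236554-49236613 on mm7. This carrier is known from macrophages as well as from kidney and gut. Of 9 macrophage markers tested, 3 were above 0 and 6 below, none passed, their median was -0.03, and their summed level, 89.2% of it from the Lyz2 probe, ran from 93.0 to 114 in sham and 101 to 121 in adrenalectomized hearts.

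Slc7a8 encodes LAT2, a light chain that exchanges neutral amino acids, and lies on the same chromosome, with its probe at chr14:49589234-49589293. Its levels were -1.18, -1.08 and -1.38 in sham hearts and -1.57, -1.47 and -1.55 after adrenalectomy. The groups did not overlap, and the adrenalectomized hearts differed little among themselves (SD 0.05, n = 3). The difference was -0.32 (SE 0.12, 95% interval -0.59 to -0.04, limma adjusted p = 0.363) and -0.36 within slide 1.

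Slc7a6 encodes y+LAT2, the light chain most like y+LAT1 in function, and its difference had the opposite sign to that of Slc7a7. Levels were -2.28, -2.55 and -2.18 in sham hearts and -1.96, -1.78 and -2.15 in adrenalectomized hearts. The groups were apart by a narrow margin, set by sham replicate 3 and adrenalectomized replicate 3. The difference was 0.37 (SE 0.15, 95% interval 0.02 to 0.72, limma adjusted p = 0.391) and 0.37 within slide 1, and it was -0.42 under normexp. A second probe of the gene gave 0.34 (SE 0.15). The overlapping Slc7a6os, with levels of -0.26, -0.27 and -0.34 against -0.12, -0.15 and -0.20, differed by 0.14 (SE 0.10, adjusted p = 0.596).

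Slc7a4 encodes a relative of the cationic carriers whose own transport activity is not settled. Its levels were -2.22, -1.995 and -2.22 in sham hearts and -1.86, -1.87 and -1.91 in adrenalectomized hearts. All adrenalectomized values were higher than all sham values and almost equal to each other (SD 0.02, n = 3). The difference was 0.26 (SE 0.11, 95% interval 0.01 to 0.52, limma adjusted p = 0.398) and 0.28 within slide 1, and -0.33 under normexp.

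Slc7a1 and Slc7a2 encode CAT1 and CAT2, the carriers that bring arginine into most cells, where it feeds nitric oxide synthesis. Slc7a1 had levels of -3.70, -3.52 and -3.68 in sham and -3.28, -3.78 and -3.85 in adrenalectomized hearts. Adrenalectomized replicate 1 was the highest and the other adrenalectomized hearts the lowest, which left a difference of -0.004 (SE 0.17, 95% interval -0.41 to 0.40) and 0.36 within slide 1. For Slc7a2 the levels were -3.72, -3.82 and -4.04 against -3.98, -4.15 and -4.39, groups that overlapped through sham replicate 3. Its difference was -0.31 (SE 0.15, adjusted p = 0.442) and -0.12 within slide 1.

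LAT1, the carrier of leucine and other large neutral amino acids, is encoded by Slc7a5. It had levels of -2.50, -2.22 and -2.20 in sham and -2.21, -2.07 and -2.32 in adrenalectomized hearts. The groups overlapped, and the difference was 0.11 (SE 0.13, 95% interval -0.20 to 0.41). Its partner, the CD98 heavy chain encoded by Slc3a2, was at 3.00, 3.04 and 3.27 against 3.21, 3.04 and 2.97, a difference of -0.03 (SE 0.12, 95% interval -0.32 to 0.26). Slc3a2 was the only Slc3 gene tested, and its value turned to 0.11 within slide 1 and 0.28 under normexp. A dimmer probe of Slc3a2 gave -0.26 (SE 0.13).

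Slc7a11, which encodes the cystine and glutamate exchanger xCT and carries 2 of the cores printed earlier, was read by 4 probes and could not be tested. One of its probes was above background in sham replicate 1 only, another in adrenalectomized replicate 2 only, and the other pair on no array. Slc7a15 was tested, with a difference of 0.22 (SE 0.29).

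Slc7a10 and Slc36a2 are described together because both are known as surface markers of fat cells. Slc7a10 encodes the alanine, serine and cysteine carrier Asc-1, a marker of white adipocytes, and Slc36a2 encodes the proton-coupled carrier PAT2, found on brown and beige adipocytes. Slc7a10 had levels of -5.49, -1.85 and -2.58 in sham and -2.79, -1.44 and -1.99 in adrenalectomized hearts. Sham replicate 1 stood far below the other arrays and was not above background. The difference of 1.24 was the largest of the members tested but had an SE of 0.90 (95% interval -0.89 to 3.37, limma adjusted p = 0.608), and it was 0.52 within slide 1, 0.15 without sham replicate 1 and -0.32 under normexp.

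Slc36a2 had levels of 2.56, 2.78 and 2.65 in sham and 2.75, 3.52 and 3.30 in adrenalectomized hearts. Adrenalectomized replicate 1, on the slide of the sham hearts, lay within the sham range, and the hearts on slide 2 were higher. The difference was 0.53 (SE 0.20, 95% interval 0.06 to 1.01, limma adjusted p = 0.371) and 0.09 within slide 1. A dim second probe of Slc36a2, above background on 2 of 3 arrays in each group and not tested, gave 0.05. Of 13 adipocyte markers 11 were tested, 10 with a difference above 0 and none called, with a median of 1.34 over all arrays and 0.19 within slide 1. Relative to the sham mean, the median marker lay at -1.003, 0.50 and 0.03 in the sham hearts and 0.19, 2.03 and 1.76 in the adrenalectomized hearts, the same order of arrays as for Slc36a2. Their summed level, 57.7% of it from the Fabp4 probe, ran from 387 to 542 in sham and from 464 to 818 in adrenalectomized hearts, and of the 11 only Elovl3 was above background on no sham array. The part of adipocyte RNA in the values of both transporters was not tested.

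**Figure D2:**
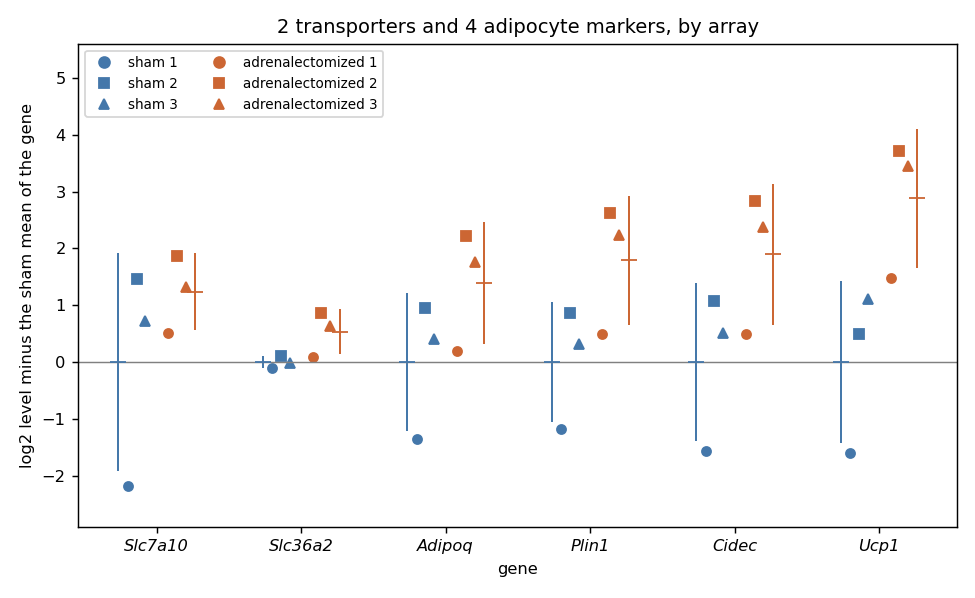
Log2 level of each array minus the sham mean of the gene (vertical axis) for Slc7a10, Slc36a2 and 4 adipocyte markers, Adipoq, Plin1, Cidec and Ucp1. Symbols are single hearts and bars the group mean ± SD (n = 3); adrenalectomized replicates 2 and 3 are the highest for all 6 genes except Slc7a10, where sham replicate 2 lies above adrenalectomized replicate 3.

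Of the other Slc36 members, Slc36a1, the proton-coupled carrier of small neutral amino acids on lysosomes and the gut surface, was at -0.996, -0.94 and -1.02 against -1.02, -1.09 and -0.95. Its difference was -0.03 (SE 0.10, 95% interval -0.26 to 0.20). Slc36a3 and Slc36a4 were not tested.

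The Slc6 family held 19 gene names, of which 9 were tested, 6 above 0 and 3 below with a median of 0.19. Of those above 0, Slc6a4 and Slc6a7 were tested only through the adrenalectomized group. Under normexp the split was 2 above and 7 below.

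Slc6a8, the creatine transporter that supplies heart muscle with creatine from the blood, had levels of 4.26, 3.80 and 4.13 in sham and 4.49, 4.26 and 4.35 in adrenalectomized hearts. All adrenalectomized values were above all sham values, with sham replicate 1 and adrenalectomized replicate 2 almost equal. The difference was 0.30 (SE 0.15, 95% interval -0.04 to 0.65, limma adjusted p = 0.451) and 0.43 within slide 1. Without sham replicate 2, the lowest heart, it was 0.17.

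Slc6a6, the taurine transporter, had levels of 3.58, 3.90 and 3.27 in sham and 2.81, 3.16 and 3.44 in adrenalectomized hearts. The groups overlapped through sham replicate 3 and adrenalectomized replicate 3. The difference was -0.45 (SE 0.22, 95% interval -0.96 to 0.06, limma adjusted p = 0.451), and within slide 1 it was -0.78 (unadjusted p = 0.0287, adjusted p = 0.457). It was -0.29 without sham replicate 2 or without adrenalectomized replicate 1. A second probe of Slc6a6, read from another stretch of the gene, gave -0.06 (SE 0.12), so the size was not shared by both probes.

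Among the Slc6 genes with an unadjusted p under 0.05 was Slc6a14, a carrier of neutral and cationic amino acids known from epithelia. It was at -2.40, -2.91 and -2.26 in sham and -2.23, -1.80 and -2.11 in adrenalectomized hearts. The groups were apart only by the small gap between sham replicate 3 and adrenalectomized replicate 1. The difference was 0.48 (SE 0.20, 95% interval 0.01 to 0.95, limma adjusted p = 0.406), 0.29 within slide 1, 0.29 without sham replicate 2 and -0.43 under normexp, and the second probe of the gene was above background on no array. Of 9 epithelial and mesothelial markers 7 were tested, 6 above 0 and none called, with a median of 0.06. The 6 include Msln, with a difference of 0.00 (SE 0.12), and Epcam, which was above background on no sham array. Within slide 1, 2 markers were above 0 and 5 below, with a median of -0.03. Their summed level, 45.4% of it from Msln, was 12.6 to 14.99 in sham and 13.3 to 17.6 in adrenalectomized hearts.

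Slc6a16, an orphan member of the family, was at -2.85, -2.79 and -3.05 against -2.51, -2.58 and -2.74. The groups did not overlap, with a difference of 0.29 (SE 0.12, 95% interval 0.002 to 0.57, limma adjusted p = 0.407), 0.39 within slide 1 and -0.66 under normexp. Slc6a7, a proline carrier known from brain, was at -4.35, -4.12 and -4.48 against -3.64, -4.07 and -4.07. Its probe was above background on 1 of 3 sham arrays, so the sham values are close to the limit of the scan. The difference was 0.39 (SE 0.16, limma adjusted p = 0.406), 0.68 within slide 1 (unadjusted p = 0.0108, adjusted p = 0.382), 0.25 without adrenalectomized replicate 1 and -1.04 under normexp.

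**Figure D3:**
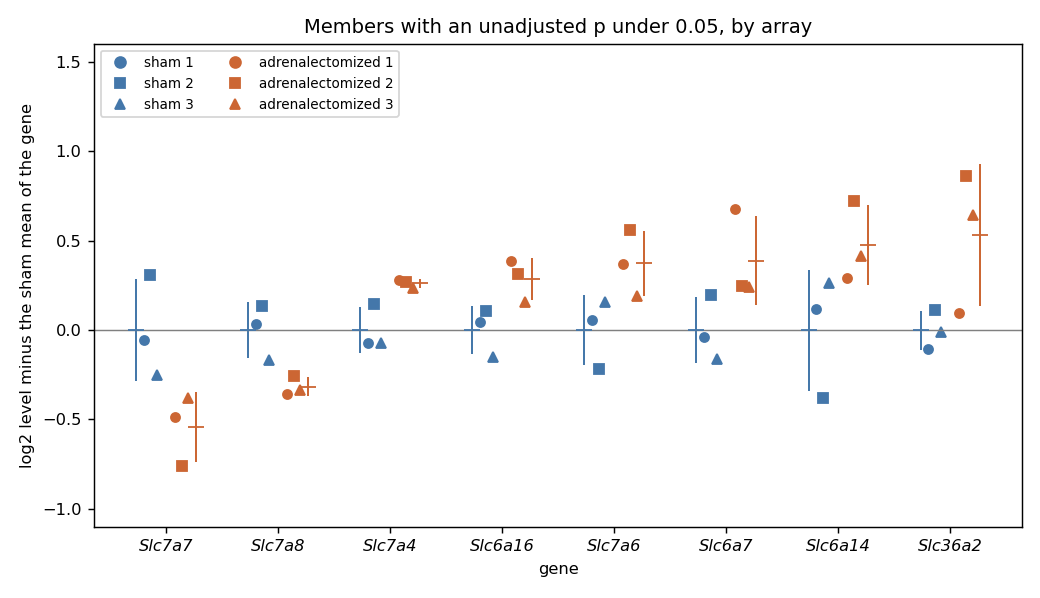
Log2 level of each array minus the sham mean of the gene (vertical axis) for the 8 members with an unadjusted limma p under 0.05. Symbols are single hearts and bars the group mean ± SD (n = 3); the groups are apart for 7 genes and overlap for Slc36a2, where adrenalectomized replicate 1 lies among the sham hearts.

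Slc6a17, a carrier known from synaptic vesicles, was read by 3 probes within one short stretch of the gene, and they gave -0.57 (SE 0.36), 0.04 (SE 0.12) and 0.29 (SE 0.24). On the first of these the sham hearts spanned -1.43, -0.97 and -2.49, wider than the difference, and it was -0.24 without sham replicate 2 and -1.001 without sham replicate 3. The remaining Slc6 genes tested were Slc6a9, the glycine carrier GlyT1 (0.08, SE 0.17), Slc6a4, the serotonin transporter (0.19, SE 0.41), and Slc6a13, a carrier of GABA and taurine (-0.21, SE 0.33). The noradrenaline and dopamine transporters Slc6a2 and Slc6a3, markers of nerve endings, were above background on no array, as were the nerve markers Th and Chat. The nerve markers Uchl1, Tubb3 and Prph were above background on every array. Of 11 neuron and Schwann cell markers 7 were tested, 4 above 0 and 3 below, with a median of 0.02, but 0 above and 7 below within slide 1 (median -0.27) and 2 above and 5 below under normexp (median -0.48).

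The Slc38 family holds the sodium-coupled glutamine carriers, and all 5 genes that the array names Slc38a were tested. Slc38a2 encodes SNAT2, a carrier of small neutral amino acids that many cells raise when amino acids run short. Its brightest probe, the one nearest the 3′ end, was at 3.64, 3.40 and 3.83 in sham and 3.73, 3.73 and 3.88 in adrenalectomized hearts. The groups overlapped, and the difference was 0.16 (SE 0.14, 95% interval -0.17 to 0.48).

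The other 3 probes of Slc38a2, the first 3 printed earlier, all gave values below 0. A_52_P676686 was at 1.499, 1.62 and 1.13 in sham and 0.47, 0.71 and 0.97 in adrenalectomized hearts. A_52_P459046 was at -0.63, -0.74 and -0.72 in sham and -1.48, -1.41 and -0.82 in adrenalectomized hearts. On both probes every adrenalectomized value lay below every sham value, with adrenalectomized replicate 3 nearest to the sham hearts. With every probe tested on its own, the differences were -0.70 (SE 0.18, limma adjusted p = 0.207) and -0.54 (SE 0.19, adjusted p = 0.293), and A_51_P199314 gave -0.28 (SE 0.15). Averaged over its probes, the gene was at -0.34, so the direction of Slc38a2 depends on which probe stands for it.

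**Figure D4:**
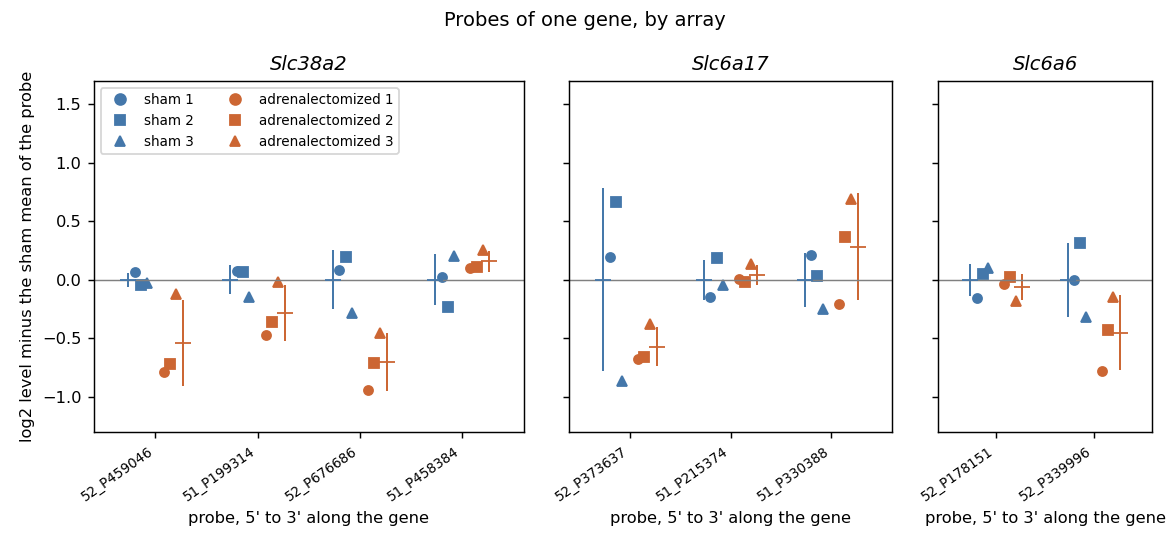
Log2 level of each array minus the sham mean of the probe (vertical axis) for the tested probes of Slc38a2, Slc6a17 and Slc6a6, ordered 5′ to 3′ along the gene. Symbols are single hearts and bars the group mean ± SD (n = 3); the last Slc38a2 probe lies at 0.16 and the other 3 between -0.28 and -0.70.

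Slc38a1 encodes SNAT1, and its 4 tested probes all gave values below 0, from -0.05 to -0.30, while 2 more were above background on no array. Its brightest probe was at 0.14, 0.54 and -0.20 against -0.38, -0.16 and 0.22, a difference of -0.27 (SE 0.23) with overlapping groups, which was -0.08 without sham replicate 2, -0.13 without adrenalectomized replicate 1, -0.45 without sham replicate 3 and -0.43 without adrenalectomized replicate 3. Slc38a3, the glutamine carrier SNAT3, had the smallest p of the family. It was at 1.72, 1.12 and 1.89 in sham and 2.08, 1.61 and 1.86 in adrenalectomized hearts, and the groups overlapped. Its difference was 0.28 (SE 0.22, limma adjusted p = 0.646), 0.51 within slide 1 and 0.05 without sham replicate 2. Slc38a4 and Slc38a5 were at 0.02 (SE 0.16) and -0.01 (SE 0.13), and both signs turned in other settings.

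The Slc1 family holds the glutamate carriers and the neutral carriers ASCT1 and ASCT2. Of 7 gene names 6 were tested, 5 above 0 and 1 below with a median of 0.21, but the median was -0.01 within slide 1 and -0.60 under normexp. Slc1a1, the glutamate, aspartate and cysteine carrier of many tissues, had the smallest p. It was at -2.24, -2.10 and -2.20 in sham and -2.11, -1.82 and -1.97 in adrenalectomized hearts, where adrenalectomized replicate 1 fell just below the highest sham heart. The difference was 0.22 (SE 0.12, limma adjusted p = 0.495), 0.23 on its second probe and 0.07 within slide 1.

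Slc1a5 encodes ASCT2, a glutamine exchanger, and was at 1.71, 2.28 and 2.24 in sham and 1.91, 3.14 and 2.55 in adrenalectomized hearts. Only the hearts of slide 2 were above the sham range. The difference was 0.46 (SE 0.32, 95% interval -0.29 to 1.20, limma adjusted p = 0.589), -0.16 within slide 1 and 0.16 without adrenalectomized replicate 2. Slc1a3, the glutamate carrier GLAST, had the same shape, at -2.71, -1.94 and -2.38 against -2.41, -1.38 and -1.60, with 0.54 (SE 0.30) over all arrays, -0.07 within slide 1 and 0.34 without adrenalectomized replicate 2. Slc1a4, which encodes ASCT1, was at 0.08 (SE 0.10) on its brighter probe. A dimmer probe gave 0.51 (SE 0.19, limma unadjusted p = 0.0321, adjusted p = 0.324). That probe was tested only through the adrenalectomized group, where it was higher. Slc1a2 and Slc1a6 were at 0.21 (SE 0.35) and -0.06 (SE 0.13).

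All 3 genes that the array names Slc43a were tested. Slc43a2 encodes LAT4, a carrier of branched-chain amino acids, and had the smallest p, at -3.74, -3.88 and -4.11 in sham and -3.70, -3.67 and -3.86 in adrenalectomized hearts. The groups overlapped, its probe was above background on 2 of 3 sham arrays, and the difference was 0.17 (SE 0.13, limma adjusted p = 0.636) but -0.41 (SE 0.48) on its other probe. Slc43a1, which encodes LAT3, and Slc43a3 were at -0.04 (SE 0.14) and -0.07 (SE 0.14).

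The 20 members without a test were above background on no array (11 genes) or on some arrays (9 genes). Among the first were Slc6a2, Slc6a3, Slc6a5, Slc6a11, Slc6a19, Slc6a20, Slc7a3, Slc7a9, Slc7a12 and Slc7a13, carriers known mainly from nerve, kidney, gut or other tissues. The second were Slc1a7, Slc3a1, Slc6a12, Slc6a15, Slc6a18, Slc7a11, Slc7a14, Slc36a3 and Slc36a4. Probes can miss a transcript: for Slc1a2, probes 95 bases apart were above background on 6 arrays and on none. Not well above background is therefore a statement about the probe.

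Genes of amino acid metabolism and sensing were read from 7 lists, and none of their genes was called. The amino acid response list, targets of Atf4 and its partners, had 15 of 29 tested genes above 0 and 14 below, with a median of 0.01. The smallest p-values there belonged to the stress hormone Gdf15 (0.60, SE 0.20, limma adjusted p = 0.327) and the transcription factor Cebpb (0.60, SE 0.21, adjusted p = 0.351; 0.19 within slide 1). Branched-chain breakdown had 10 of 19 above 0 and a median of 0.02, but 14 of 19 and 0.17 within slide 1 and 16 of 19 and 0.29 under normexp. It was led by Dbt, the core of the branched-chain dehydrogenase (-0.59, SE 0.12, adjusted p = 0.202), and Hibch (0.31, SE 0.10, adjusted p = 0.326).

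Glutamine and glutamate metabolism had 4 of 12 above 0 and a median of -0.11, but 6 of 12 and 0.019 within slide 1. Glul, glutamine synthetase, was at 4.03, 4.23 and 3.99 in sham and 4.76, 4.47 and 4.63 in adrenalectomized hearts. All 3 adrenalectomized values lay above the sham values, with a difference of 0.54 (SE 0.12, limma adjusted p = 0.226) and 0.67 within slide 1. Abat, GABA transaminase, was at -0.56 (SE 0.22, adjusted p = 0.382). For arginine, nitric oxide, creatine and polyamines 7 of 18 were above 0 with a median of -0.05, but 11 of 18 and 0.045 within slide 1. Gatm, the first enzyme of creatine synthesis, was at -0.46 (SE 0.17, adjusted p = 0.362), set beside 0.30 for the creatine transporter Slc6a8, and Nos2 was at 0.43 but above background on no sham array.

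Taurine, cysteine and glutathione synthesis had 6 of 10 above 0 and a median of 0.06. Gss was at 0.28 (SE 0.11, limma adjusted p = 0.394), and Cdo1, which starts taurine synthesis from cysteine, at 1.52 (SE 0.66, adjusted p = 0.421) but 0.27 within slide 1. Amino acid sensing by mTORC1 had 17 of 22 above 0 and a median of 0.10. The median was 0.14 within slide 1, and under median centring 14 of 22 were above 0 with a median of 0.05. The 17 include Castor2, whose probe was above background on 1 sham array and all adrenalectomized arrays, where it was higher. Rragd, a Rag GTPase, was at -0.32 (SE 0.11, adjusted p = 0.341) and Mtor at 0.33 (SE 0.12, adjusted p = 0.351). Carriers of other families had 9 of 15 above 0 and a median of 0.03, with Slc15a4 at 0.26 (SE 0.11) and Slc25a13 at 0.31 (SE 0.17). Under normexp the medians of the glutamine list and the arginine list turned to 0.11 and 0.13, and that of the other carriers to -0.08. Under median centring the amino acid response, branched-chain and other carrier medians were -0.02, -0.01 and -0.005.

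Spots well above background made up 59.8%, 57.7% and 60.2% of sham replicates 1, 2 and 3. In the adrenalectomized replicates they made up 60.5%, 66.8% and 63.2%, each above every sham array and highest on slide 2. The part of this difference in the values of dim members was not tested. No member spot was saturated. Markers of the remaining cell types contained no called gene. Atrial markers were below 0 in 7 of 7, with a median of -0.70 and summed levels of 1366 to 2119 in sham and 1079 to 1139 in adrenalectomized hearts. Ventricular markers, which define the tissue, were above background in 8 of 8, with a median of -0.17. Medians were 0.62 for red cells and platelets, 0.45 for lymphocytes, -0.17 for endothelium, -0.22 for fibroblasts, -0.15 for smooth muscle and pericytes and -0.22 for skeletal muscle. Relative to the sham mean, the median red cell and platelet marker lay at -0.11, 0.10 and 0.02 in the sham hearts. In the adrenalectomized hearts it lay at 1.02, 1.34 and -0.45, so adrenalectomized replicate 3 was below every sham heart. Under normexp the medians turned to 0.21 for ventricle, 0.15 for endothelium, 0.09 for fibroblasts, 0.23 for smooth muscle and -0.56 for lymphocytes, and under quantile normalization that for ventricle was 0.05. Their part in the transporter values was not tested.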

How the data were processed

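Total RNA (50 ng) was amplified and 5 µg of cDNA labelled with Cy3, per the labels' protocols. Scans were read with Agilent Feature Extraction 9.5, per the submitters' processing notes (9.5.3.1 with GE1-v5_95_Feb07, per the file headers, on a design for mm7). The deposited processed signal is a linear intensity from which the scanner software had removed background and spatial trends, per the file headers. It was not normalized between arrays. At all 45018 spots of each array, the value table gave this signal too.

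Control and outlier spots were left out, repeat spots averaged, and log2 intensity set against each array's 75th percentile (644 to 924 units). A probe was tested when every array of a group, or of both, had it well above background. A gene was represented by its brightest tested probe. Of the 96 member probes, 78 were named through a RefSeq accession. lmFit and eBayes of limma 3.58.1 (R 4.3.3) were fitted over all 16952 genes with Benjamini-Hochberg adjustment, and tested on simulated data. Intervals are 95%. An exact permutation test of 3 against 3 cannot give a p under 0.1. The labels do not tie any sample to another, and the number of arrays limits the precision. Tables and figures used Python 3.11.15 with pandas 2.3.3, numpy 2.4.6, scipy 1.17.1 and matplotlib 3.10.9.

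Per-array values were given for members with an unadjusted p under 0.05 or groups that did not overlap, the member of smallest p in each family, and a set of carriers chosen by function; from each pathway list the 2 genes of smallest p were named. Members and lists were chosen with earlier results of these data known. Slc38a1, Slc1a3, Slc6a17 and Slc36a1 values by array were added after they were seen. Alternatives covered background correction, normalization, filters, probe summary, slide, replicate number, variance trend, threshold and each array left out. Some member genes are not reported here by name.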

Additional observations from a re-analysis of the deposited data

How the results depend on the processing

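Over the 36 genes and the 20 alternatives with a value per gene there were 716 values, of which 59 turned direction and 10 passed the threshold with the same direction, all 10 under normexp. Of the 20, 6 leave the difference of a gene as it was and slide 1 alone repeats the slide block; in the others, 52 of 468 values turned direction. Direction was kept by 10 genes in every alternative that fitted them, and by 19 in every such alternative but normexp. Genes dim on any array had no value under the filter for all 6 arrays. The number of members called was 0 in each alternative, an adjusted p of 0.1 included, except normexp, with 3 higher and 14 lower of 36. Normexp also called 1220 higher and 4734 lower of all 16952 genes. The median difference of 0.12 was -0.33 under normexp and 0.007 with no filter on dim probes (56 genes). It was 0.082 over the 32 genes above background on all 6 arrays. With each array left out it ran from 0.032 to 0.16, lowest without adrenalectomized replicate 2.

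Differences that turned under normexp were Slc1a1 -0.34, Slc1a2 -0.86, Slc1a3 -0.29, Slc1a4 -0.93, Slc38a4 -0.24, Slc3a2 0.28, Slc43a2 -1.17, Slc43a3 0.20, Slc6a14 -0.42, Slc6a16 -0.66, Slc6a4 -0.90, Slc6a7 -1.04, Slc7a10 -0.32, Slc7a15 -1.02, Slc7a4 -0.33, Slc7a5 -0.57, Slc7a6 -0.42. With the slide as a fixed block, and equally on slide 1 alone, they were Slc1a3 -0.068, Slc1a5 -0.16, Slc38a4 -0.045, Slc38a5 0.12, Slc3a2 0.11, Slc43a1 0.15, Slc7a1 0.36. With the mean of the probes they were Slc38a2 -0.34, Slc38a4 -0.046, Slc43a2 -0.12, and with median centring Slc38a4 -0.017. With each array left out, the genes that turned ran for Slc1a2 from -0.13 to 0.43, Slc1a6 from -0.14 to 0.028, Slc36a1 from -0.068 to 0.003, Slc38a4 from -0.14 to 0.15, Slc38a5 from -0.12 to 0.071, Slc3a2 from -0.10 to 0.051, Slc43a1 from -0.14 to 0.047, Slc43a3 from -0.17 to 0.066, Slc6a13 from -0.51 to 0.056, Slc6a4 from -0.20 to 0.52, Slc6a9 from -0.068 to 0.19, Slc7a1 from -0.18 to 0.10 and Slc7a15 from -0.093 to 0.47. The cause was not tested.

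With the replicate block, 0 members were called (0 higher and 1 lower over all genes), the median was 0.12, and the replicate block changed no call among the members; over all genes 5 higher and 2 lower were called without it. Same-numbered samples correlated at 0.16, 0.16 and -0.16 in their deviations from the group means. With so few samples per group this cannot tell whether the numbers mark pairs, and the samples were not treated as pairs. Dim probes, 4 tested members among them below background on some array, have the least certain values.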

Other observations

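Some genes of the same families were named differently on this older array design and fell outside the name rule: 6 genes read by 8 probes, of which 3 genes were tested. Slc38a9, the lysosomal arginine sensor of mTORC1, differed by 0.01 and -0.14 on its 2 probes. Slc38a10 differed by -0.003 on a probe above background on all arrays and by 0.34 on a dim one, and Slc38a7 by -0.01. Slc38a8 and Slc6a20a were above background on no array. Slc38a11 was above background on 1 adrenalectomized array only.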
